A study of Mus musculus with 2 samples.

Results

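The lysosomal enzymes and vacuolar proton pump were described here as a module of 40 genes in mouse eosinophils, chosen by exact gene symbol in the deposited tables. All 40 symbols were found among 23343 genes, and all had reads in both libraries. They comprised 16 genes of the proton pump (6 of its membrane sector V0, 8 of its cytosolic sector V1 and 2 accessory proteins), 12 soluble hydrolases, 3 soluble proteins that are not enzymes, 5 lysosomal membrane proteins, 3 genes that sort enzymes to the lysosome and 1 transcriptional regulator. Poly(A) RNA was sequenced from CCR3+ SiglecF+ eosinophils of the pooled bone marrow of naïve C57BL6J mice, in 2 independent sorts with 1 stranded library each. Both sorts were of 1 group, with no treatment, mutant or other cell type, so the comparisons are between genes within a library and between the 2 sorts, and not between conditions. The number of mice in each pool is not given in the labels.

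Lysosomes digest material delivered by endocytosis, phagocytosis and autophagy. The vacuolar H+-ATPase drives protons into them by ATP hydrolysis in V1, which turns a rotor in V0, and most lysosomal hydrolases work best at the acid pH this sets. Soluble hydrolases are tagged with mannose 6-phosphate in the Golgi and carried by receptors, while the membrane is lined by heavily glycosylated proteins. Eosinophils store cationic proteins in specific granules, which are related to lysosomes, and lysosomal hydrolases are found in eosinophil granules as well.

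The tables summed to 9264150 reads in sort 2 and 10087743 reads in sort 1. Levels are given in RPKM (reads per transcript length and library depth), as the authors deposited them, and detection required 1 RPKM or more in each sort. Ratios between sorts, given further on, come from scaled counts and not from RPKM, and for 3 of the 40 members the 2 measures differ in sign. All 11 eosinophil markers were detected, with summed levels of 4327 RPKM in sort 2 and 3489 RPKM in sort 1. All 13 neutrophil markers were also detected, at summed levels of 4231 RPKM in sort 2 and 4469 RPKM in sort 1, led by Retnlg and S100a9. Of 14 macrophage markers 8 were detected, and they summed to 38.7 RPKM in sort 2 and 55.3 RPKM in sort 1. None of 7 erythroid markers was detected. The sorts stood apart in Rn45s, a ribosomal RNA precursor, which took 0.963% of reads in sort 2 and 9.07% in sort 1, and in Xist, the RNA of the inactive X chromosome, with 5 reads in sort 2 and 47487 reads in sort 1. The Y-linked genes Kdm5d, Ddx3y, Eif2s3y and Uty had 355 to 756 reads each in sort 2 and 0 in sort 1, so sort 2 held male cells, which were not detected in sort 1. The part of the other cells' RNA in the lysosomal levels was not tested, and in these bulk libraries fewer cells of a type and less RNA per cell cannot be told apart.

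Promoters of the module were searched for the E-box CACGTG, the core of the site bound by TFEB and related factors, which are known to drive lysosomal genes. The letters searched, on both strands, were CACGTG, its extension TCACGTG (added after the matches were seen), the octamer TCACGTGA and that octamer with a further G before and C after it. Each longer motif contains the shorter ones. Windows ran from 250 bases before to 50 bases after the annotated start, from RefSeq on GRCm38.p6, and were matched by symbol for 32 of the 40 genes. Asah1, Atp6v0a2, Atp6v1b2, Atp6v1c1, Atp6v1g1, Atp6v1h, M6pr and the cholesterol transporter gene Npc1 were not matched. The windows printed here are those of the 5 genes that hold the octamer, and of Lamp1, which was chosen after its 4 copies of the core were seen. They lie at chr8:105566050-105566079 (minus strand, Atp6v0d1), chr17:26676387-26676416 (plus strand, Atp6v0e), chr16:44139373-44139402 (minus strand, Atp6v1a), chr17:12769696-12769766 (minus strand, Igf2r), chr8:3500436-3500491 (plus strand, Mcoln1) and chr8:13159088-13159163 (plus strand, Lamp1). The counted row of Atp6v1a begins at 44139019 on the minus strand. Its match therefore lies further before that start than before the start used for the window. Each window is written 5′ to 3′ on the gene's strand, and capitals mark TCACGTG or TCACGTGA on either strand.
Atp6v0d1: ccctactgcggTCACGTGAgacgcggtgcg
Atp6v0e: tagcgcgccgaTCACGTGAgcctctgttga
Atp6v1a: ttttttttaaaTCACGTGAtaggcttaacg
Igf2r: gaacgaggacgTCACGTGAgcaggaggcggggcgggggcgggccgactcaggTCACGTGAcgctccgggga
Mcoln1: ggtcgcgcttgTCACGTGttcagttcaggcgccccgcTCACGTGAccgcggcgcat
Lamp1: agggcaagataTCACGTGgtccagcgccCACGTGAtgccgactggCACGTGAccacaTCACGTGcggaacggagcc

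CACGTG was present in 10 of the 32 members' promoters (31.2%), against 8.09% of 27025 genes with a promoter in the RefSeq table and 12.1% of the 5344 of them detected in both sorts. The octamer was in 5 of 32 (15.6%), against 1.12% of all and 2.68% of detected genes, and its longest form was in Igf2r alone (3.12% of the 32, against 0.370% of all and 1.09% of detected genes). All 10 members with the core had it as TCACGTG, a form in 4.29% of all and 7.71% of detected genes. By role, the core was in 4 of 11 pump genes (Atp6v0b, Atp6v0d1, Atp6v0e and Atp6v1a) and 3 of 11 hydrolases (Arsa, Gaa and Glb1). Lamp1, Mcoln1 and Igf2r held it as well. The other lysosomal genes listed for comparison held it in 14 of 62 promoters (22.6%). Median GC content of the windows was 59.0% in the members, 61.3% in detected genes and 52.7% in all genes. Levels overlapped widely between members with and without the core. The 10 members with it had median levels of 8.12 RPKM in sort 2 and 7.36 RPKM in sort 1, and mean levels from 0.689 RPKM (Arsa) to 38.2 RPKM (Lamp1). The 22 matched members without it had medians of 6.25 RPKM in sort 2 and 7.16 RPKM in sort 1, and means from 0.986 RPKM (Atp6v0c) to 153 RPKM (Man2b1). A match describes letters in a window and is not evidence of binding.

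**Figure D1:**
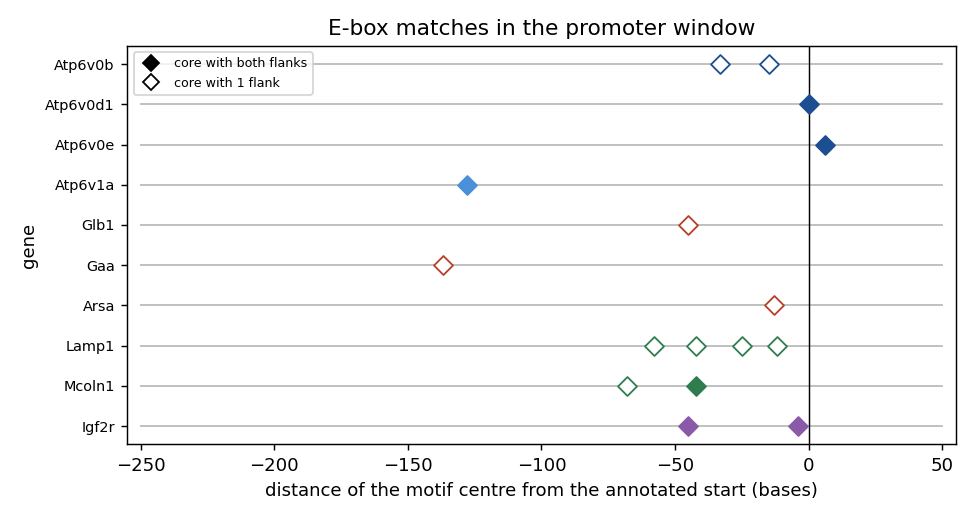
Position of each E-box match in the promoters of the 10 members that hold the core, as the distance in bases of the motif's centre from the annotated start (vertical line), in windows from 250 before to 50 after it. Filled diamonds are cores with both flanking letters (TCACGTGA), open ones have 1 flank, and colours give the gene's role as in the plot of levels: 4 open diamonds stand in Lamp1 and 2 filled ones in Igf2r.

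Most of the module was detected in both sorts, at levels that ranged widely. Detected members numbered 37 of 40 (92.5%), against 30.2% of all genes, and 15 of 40 had at least 10 RPKM in both sorts, against 5.55% of all genes. The members were chosen with earlier results of these data known, so these shares describe the list and test nothing. The median member had 5.38 RPKM in sort 2 and 7.03 RPKM in sort 1, and the median of all 7048 detected genes was 3.97 RPKM in sort 2 and 4.07 RPKM in sort 1. The 3 members that missed detection were Atp6v0c, Gaa and Arsa, each under 1 RPKM in sort 2. Together the module took 0.699% of all reads in sort 2 (95% Wilson interval 0.693 to 0.704%) and 0.670% in sort 1 (0.665 to 0.675%). Such intervals cover counting error only.

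**Figure D2:**
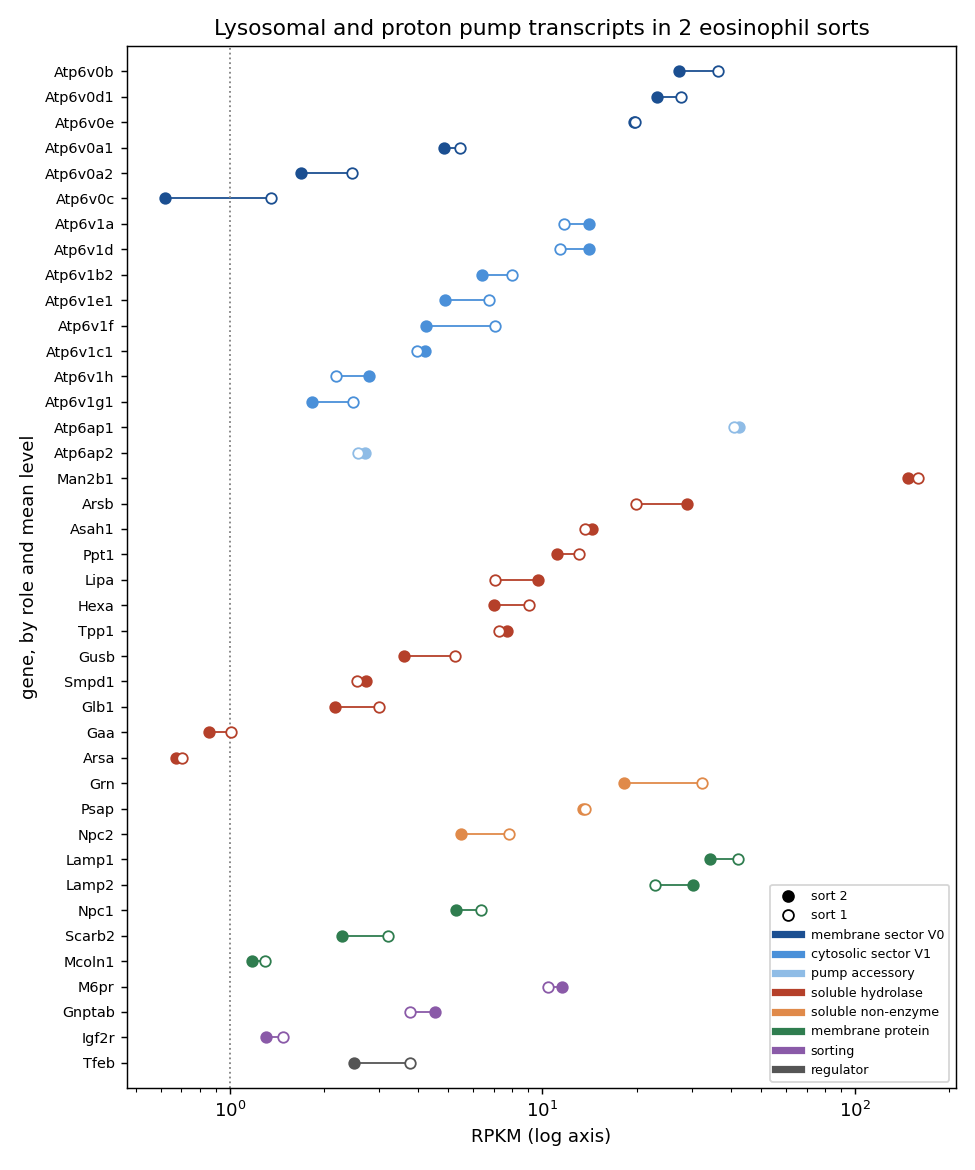
RPKM on a log axis for each of the 40 genes in sort 2 (filled) and sort 1 (open), joined by a line, coloured and ordered by role and then by mean level. Man2b1 stands alone above 100 RPKM, and Atp6v0c, Gaa and Arsa lie left of the dotted line at 1 RPKM in sort 2.

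Man2b1, lysosomal alpha-mannosidase, which trims mannose from N-linked sugar chains, dominated the module. It had 148 RPKM in sort 2 and 159 RPKM in sort 1 (153 ± 7.59, SD, n = 2), which placed it at rank 47 of all 23343 genes. Its row lies on the plus strand of mm10 at chr8:85083269-85098739, and none of the 50-base stretches of its transcripts occurred in another gene's transcripts. With 25995 reads in sort 2 and 27808 reads in sort 1, it supplied 40.2% (39.8 to 40.5%) and 41.2% (40.8 to 41.5%) of the module's reads in those sorts. Its level was 3.48 times that of Atp6ap1, the next member by mean, in sort 2 and 3.88 times in sort 1. Man2b2, an alpha-mannosidase outside the 40 genes, had 6.09 RPKM in sort 2 and 8.70 RPKM in sort 1.

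The other 11 hydrolases covered a range from under 1 to about 30 RPKM. Arsb, arylsulfatase B, which removes sulfate from dermatan and chondroitin sulfate, came second with 28.9 RPKM in sort 2 and 20.0 RPKM in sort 1. Of Arsb's 50-base stretches 57.8% also occurred in transcripts of any of 4 other genes, most often Gm26527, but 0.827% did so on the same strand, and the strand setting of the counting is not stated. Asah1, acid ceramidase, had 14.4 RPKM in sort 2 and 13.7 RPKM in sort 1. Ppt1, which removes palmitate from proteins, had 11.1 RPKM in sort 2 and 13.1 RPKM in sort 1. With Man2b1, these were the 4 hydrolases above 10 RPKM in both sorts.

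Lipa, the acid lipase that frees cholesterol from its esters, had 9.65 RPKM in sort 2 and 7.03 RPKM in sort 1. Hexa, the alpha chain of beta-hexosaminidase, reached 7.01 RPKM in sort 2 and 9.03 RPKM in sort 1. Tpp1, a tripeptidyl peptidase, had 7.68 RPKM in sort 2 and 7.28 RPKM in sort 1. The 3 thus formed a middle tier whose order differed between the sorts. Gusb, beta-glucuronidase, followed with 3.60 RPKM in sort 2 and 5.26 RPKM in sort 1. Smpd1, acid sphingomyelinase, had 2.72 RPKM in sort 2 and 2.55 RPKM in sort 1, and Glb1, beta-galactosidase, had 2.16 RPKM in sort 2 and 3.01 RPKM in sort 1, so the order of these last 2 also turned round. Glb1 shares 10083 bases of its span with Tmppe on the same strand, and reads of the pair may not have been separable.

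Gaa, the acid alpha-glucosidase that digests glycogen, and Arsa, arylsulfatase A, which desulfates sulfatide, were the lowest hydrolases. Gaa had 0.858 RPKM in sort 2 and 1.01 RPKM in sort 1, all from 1 of its 2 rows. Arsa had 0.674 RPKM in sort 2 and 0.703 RPKM in sort 1, from 95 and 99 reads, and its span overlaps C230037L18Rik on the opposite strand. The arylsulfatases were therefore far apart, with Arsb at 42.9 times the RPKM of Arsa in sort 2 and 28.4 times in sort 1.

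The membrane sector of the pump was led by 3 of its 6 genes. Atp6v0b, subunit c″ of the rotor ring, had 27.3 RPKM in sort 2 and 36.5 RPKM in sort 1 (31.9 ± 6.55, SD, n = 2). Atp6v0d1, subunit d, which couples the ring to the central stalk, had 23.3 RPKM in sort 2 and 27.7 RPKM in sort 1. Atp6v0e, the small membrane subunit e, had 19.6 RPKM in sort 2 and 19.8 RPKM in sort 1. All 3 carry the E-box in the windows searched. Lower were the a subunits, which form part of the proton path and help direct the pump to particular membranes. Atp6v0a1 had 4.86 RPKM in sort 2 and 5.43 RPKM in sort 1. Atp6v0a2 had 1.69 RPKM in sort 2 and 2.45 RPKM in sort 1.

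Atp6v0c, subunit c, the proton-carrying piece of the rotor ring of which each pump holds several copies, was listed lowest of the pump genes. Its row had 0.620 RPKM in sort 2 and 1.35 RPKM in sort 1, from 29 and 63 reads, so Atp6v0b stood at 44.0 times its RPKM in sort 2 and 27.0 times in sort 1. Of its 50-base stretches 32.5% also occurred in transcripts of other genes. A second entry, Atp6v0c-ps2, covers the same stretch of the minus strand (24163865 to 24169395, against 24163866 to 24169429 for Atp6v0c, chromosome 17) and was listed with the same 29 and 63 reads. Summing both entries gave 1.26 RPKM in sort 2 and 2.74 RPKM in sort 1, which would pass detection. Whether the same reads were counted under both names or divided between them was not tested, and the level of Atp6v0c is uncertain.

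All 8 genes of the cytosolic sector were detected, over a narrower range. Atp6v1a, the catalytic subunit A, had 14.1 RPKM in sort 2 and 11.7 RPKM in sort 1. Atp6v1d, the central stalk subunit D, had 14.1 RPKM in sort 2 and 11.4 RPKM in sort 1. Both were above every other V1 gene in each sort. Atp6v1b2, the B subunit that forms the ATPase head with A, had 6.40 RPKM in sort 2 and 8.02 RPKM in sort 1. Atp6v1e1, a peripheral stalk subunit, had 4.89 RPKM in sort 2 and 6.73 RPKM in sort 1. Atp6v1f, a central stalk subunit, had 4.23 RPKM in sort 2 and 7.04 RPKM in sort 1, and 18.2% of its 50-base stretches were shared with other genes. These 3 had overlapping ranges over the sorts. Atp6v1c1, subunit C at the joint of the sectors, had 4.20 RPKM in sort 2 and 3.97 RPKM in sort 1. Lowest were Atp6v1h, with 2.79 RPKM in sort 2 and 2.19 RPKM in sort 1, and Atp6v1g1, a peripheral stalk subunit with 1.83 RPKM in sort 2 and 2.48 RPKM in sort 1. Of Atp6v1g1's 50-base stretches 19.2% were shared with other genes. Subunits E and G pair in the peripheral stalks, and Atp6v1e1 was listed above Atp6v1g1 in both sorts. A second G gene, Atp6v1g2, was also detected (2.14 RPKM in sort 2 and 1.54 RPKM in sort 1), so Atp6v1g1 alone does not give the level of subunit G.

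The accessory proteins were far apart. Atp6ap1, also known as Ac45, which is needed for pump assembly, had 42.6 RPKM in sort 2 and 40.9 RPKM in sort 1 (41.7 ± 1.17, SD, n = 2), the highest of the pump genes and second of the 40 by mean. Atp6ap2, the prorenin receptor, had 2.71 RPKM in sort 2 and 2.57 RPKM in sort 1. Atp6ap1 was thus 15.7 times Atp6ap2 in sort 2 and 15.9 times in sort 1.

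Several pump subunits are encoded by more than 1 gene, and 9 further subunit genes were listed for comparison. For subunit a, Tcirg1 (a3), known from the osteoclast pump, had 5.69 RPKM in sort 2 and 5.61 RPKM in sort 1, and so was about level with Atp6v0a1 (4.86 and 5.43 RPKM). For subunit G, Atp6v1g2 had 2.14 RPKM in sort 2 and 1.54 RPKM in sort 1, which put it above Atp6v1g1 in sort 2 and below it in sort 1. The other 7 were not detected. Atp6v0a4, Atp6v0e2, Atp6v1c2 and Atp6v1e2 had 0 reads in both sorts, where a count of 0 allows up to 3 reads. Atp6v0d2 had 5 reads in sort 2 and 1 in sort 1, Atp6v1b1 had 0 and 1, and Atp6v1g3 had 0 and 4. For the d, e, B, C and E subunits, therefore, the gene among the 40 was the only one of those listed that was detected. Of 8 osteoclast markers only Mmp9, which is also on the neutrophil list, was detected, and Dcstamp, Ocstamp and Oscar had 0 reads in both sorts.

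**Figure D3:**
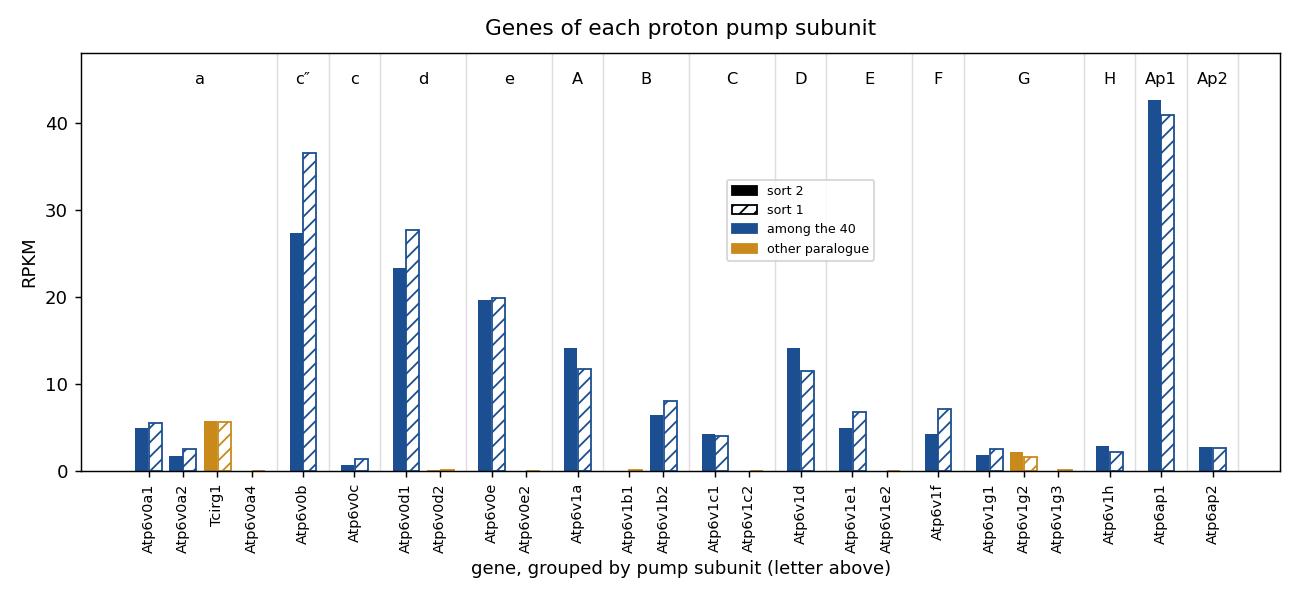
RPKM of every pump gene examined, grouped by subunit (letter above), in sort 2 (solid bars) and sort 1 (hatched bars), with the 16 genes among the 40 in blue and the 9 other subunit genes in ochre. Atp6ap1 and Atp6v0b are highest, Atp6v0c is near 1 RPKM, and Tcirg1 and Atp6v1g2 are the ochre bars above 1 RPKM.

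Among soluble proteins that are not enzymes, Grn, the progranulin precursor, had 18.2 RPKM in sort 2 and 32.5 RPKM in sort 1 (25.3 ± 10.1, SD, n = 2), the widest spread of the 3. Psap, the precursor of the saposins that present sphingolipids to hydrolases, had 13.5 RPKM in sort 2 and 13.7 RPKM in sort 1. The sum hid a difference between its 2 rows: the row starting at 60277628 held 310 reads in sort 2 and 634 in sort 1, while the row starting at 60284461 held 1104 in sort 2 and 804 in sort 1 (chromosome 10). Splits among overlapping rows may be estimates of the counting program. Npc2, which hands cholesterol to NPC1, had 5.48 RPKM in sort 2 and 7.83 RPKM in sort 1.

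The membrane proteins split into a high pair and a low group. Lamp1, a major glycoprotein of the lysosomal membrane, had 34.3 RPKM in sort 2 and 42.1 RPKM in sort 1 (38.2 ± 5.51, SD, n = 2). Lamp2, its relative, which also serves chaperone-mediated autophagy, had 30.3 RPKM in sort 2 and 22.9 RPKM in sort 1. Lamp1 was above Lamp2 in both sorts. Npc1, which exports cholesterol, had 5.27 RPKM in sort 2 and 6.34 RPKM in sort 1. Scarb2, the receptor that carries beta-glucocerebrosidase to lysosomes, had 2.28 RPKM in sort 2 and 3.21 RPKM in sort 1. Mcoln1, a calcium-releasing channel with the E-box octamer shown above, was lowest, with 1.18 RPKM in sort 2 and 1.30 RPKM in sort 1.

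Of the sorting genes, M6pr, the cation-dependent mannose 6-phosphate receptor, had 11.5 RPKM in sort 2 and 10.4 RPKM in sort 1. The larger cation-independent receptor Igf2r, which carries the longest E-box form, had 1.30 RPKM in sort 2 and 1.48 RPKM in sort 1, and its span overlaps the antisense transcript Airn. M6pr was 8.87 times Igf2r in sort 2 and 7.03 times in sort 1. Of M6pr's 50-base stretches 10.5% were shared on the same strand with another gene, M6pr-ps. Gnptab, which encodes the enzyme that starts the mannose 6-phosphate tag, had 4.54 RPKM in sort 2 and 3.78 RPKM in sort 1. Tfeb, the transcription factor, had 2.50 RPKM in sort 2 and 3.76 RPKM in sort 1. Of its relatives, Tfe3 had 1.20 RPKM in sort 2 and 1.29 RPKM in sort 1, Tfec had 1.22 RPKM in sort 2 and 0.819 RPKM in sort 1, and Mitf had 0.327 RPKM in sort 2 and 0.333 RPKM in sort 1, which placed Tfeb highest of the 4 in both sorts.

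Set side by side, pump, hydrolases and membrane proteins had medians between 4.87 and 7.35 RPKM, and the sign of 2 of their 3 differences depended on whether medians or means over genes were taken. The 16 pump genes had medians of 4.87 RPKM in sort 2 and 6.88 RPKM in sort 1. The 12 hydrolases had medians of 7.35 RPKM in sort 2 and 7.15 RPKM in sort 1, and the 5 membrane proteins 5.27 RPKM in sort 2 and 6.34 RPKM in sort 1. As a difference of medians of log2(RPKM + 1), pump minus hydrolases was -0.51 in sort 2 and -0.05 in sort 1 (-0.28 ± 0.32, SD, n = 2). Pump minus membrane proteins was -0.09 in sort 2 and 0.10 in sort 1 (0.00 ± 0.14), with opposite signs, while means over genes in place of medians gave -0.15 ± 0.02. Hydrolases minus membrane proteins was 0.41 in sort 2 and 0.15 in sort 1 (0.28 ± 0.18), but -0.11 ± 0.05 with means over genes. For pump minus hydrolases, means over genes gave -0.04 ± 0.08, and leaving out Man2b1 gave -0.24 ± 0.30 with medians. No exact test was made, since with 2 libraries its smallest two-sided p is 0.5. Sums over genes turned on Man2b1. Hydrolases summed to 237 RPKM in sort 2 and 241 RPKM in sort 1, but without Man2b1 to 88.8 and 82.6 RPKM, against 175 RPKM in sort 2 and 190 RPKM in sort 1 for the pump.

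Within the pump, the V0 median was above the V1 median in each sort, at 12.2 against 4.56 RPKM in sort 2 and 12.6 against 6.88 RPKM in sort 1. The difference of log2 medians was 0.99 in sort 2 and 0.55 in sort 1 (0.77 ± 0.31, SD, n = 2). It depended on which genes were counted: adding the other detected subunit genes, Tcirg1 to V0 and Atp6v1g2 to V1, left 0.07 ± 0.41, and leaving out Atp6v0c gave 1.65 ± 0.35.

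Between the sorts, 4 of the 40 genes (Atp6v0c, Grn, Atp6v1f and Arsb) differed by 1.5-fold or more and passed an adjusted p under 0.05, against 18.2% of all tested genes. The counts went into a two-sided exact binomial test given TMM-scaled library sizes, with Benjamini-Hochberg adjustment over the 12347 genes that had 10 reads or more in all. It compares the 2 libraries with counting noise and says nothing of conditions. Calls required a 2-fold difference besides an adjusted p under 0.05. Of the 40 genes 1 was called, 0 higher and 1 lower in sort 2, against 7.95% of all tested genes (3.05% higher and 4.90% lower). That share is carried by genes with low levels: of genes detected in both sorts 1.58% were called, and of the 37 detected members 0. The called gene was Atp6v0c, whose 29 reads in sort 2 and 63 in sort 1 made a 2.00-fold lower level in sort 2, at the very threshold, with an adjusted p of 0.00373 in the exact binomial test. With total counts as library sizes no member was called, against 7.66% of all tested genes.

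At any fold, 29 of 40 passed the adjusted p, 11 higher and 18 lower in sort 2, against 44.4% of all tested genes (22.8% higher and 21.6% lower) and 54.6% of the 7044 tested genes that were detected. A p of this test falls with read number as well as with fold. The members' median log2 ratio of sort 2 to sort 1 was -0.10, with 17 of 40 above 0. All tested genes had a median of -0.0003, with 6167 of 12347 above 0. The detected genes had a median of 0.02, with 3706 of 7044 above 0. The members' median absolute log2 ratio was 0.27, against 0.33 over all tested genes and 0.24 over detected genes. Over the 37 detected members it was 0.29. With edgeR's exact test and a common dispersion, 0 of 40 members passed at an adjusted p under 0.05, against 0.267% of tested genes, and 0 passed at an unadjusted p under 0.05, against 6.16% of tested and 1.60% of detected genes (Atp6v0c had an adjusted p of 0.901). The dispersion came from the same 2 libraries, so the difference tested also set the noise, and this test says little of whether members differed.

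The widest differences after Atp6v0c were those of Grn, Atp6v1f and Arsb. Grn had 1723 reads in sort 2 and 3069 reads in sort 1, and was 1.70-fold lower in sort 2 (log2 ratio -0.76, 95% Clopper-Pearson interval -0.85 to -0.68, adjusted p = 6.04e-70 in the exact binomial test). Atp6v1f had 109 reads in sort 2 and 181 in sort 1, a log2 ratio of -0.65 (-1.02 to -0.31). In the other direction, Arsb had 4685 reads in sort 2 and 3225 in sort 1, a log2 ratio of 0.61 (0.54 to 0.67). Lipa followed at 0.53 and Lamp2 at 0.47. Tfeb was lower in sort 2, with a log2 ratio of -0.51, and its row starting at 47785744 held 3 reads in sort 2 and 79 in sort 1 while the row starting at 47737931 held 232 and 272 (chromosome 17). Man2b1, in spite of its depth, differed by -0.029 (-0.054 to -0.005), and by 0.026 with total counts as library sizes.

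**Figure D4:**
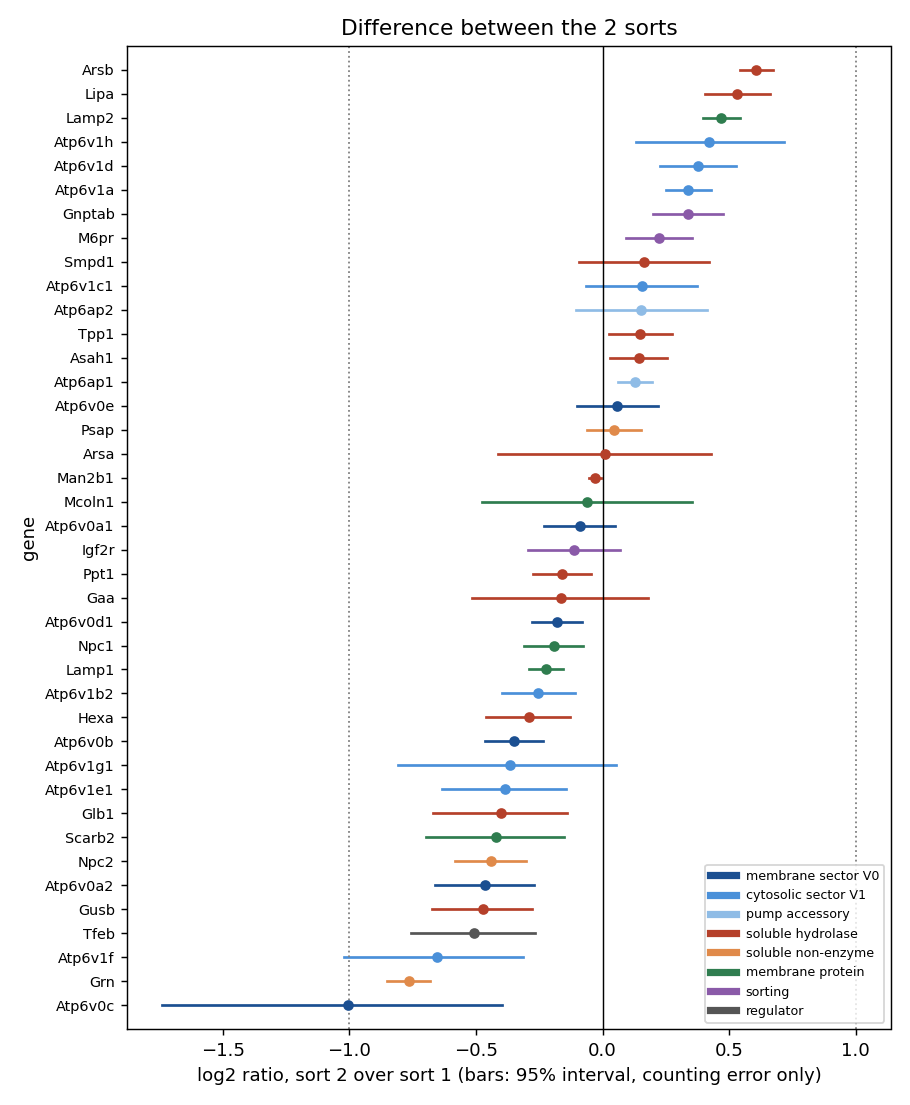
Log2 ratio of TMM-scaled counts, sort 2 over sort 1, for each of the 40 genes, ordered by ratio and coloured by role, with 95% intervals from counting error only. Dotted lines mark a 2-fold difference, which Atp6v0c reaches on the lower side, while the others lie between -0.76 (Grn) and 0.61 (Arsb).

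GC content, X linkage and markers of several cell types were set beside these ratios, and what part any of them had was not tested. Ratios fell with the GC content of the transcript, with Spearman's rho of -0.53 across 39 members and -0.54 across 8680 genes with at least 100 reads (across genes, which share both libraries). Of the 20 members above the median GC content of 51.0%, 4 had ratios above 0 and the median was -0.20. Of the other 20, 13 were above 0 and the median was 0.15. After a correction for GC content the median ratio of 39 members was -0.04. Grn then stood at -0.52, Atp6v1f at -0.44, Tfeb at -0.08, Arsb at 0.63, Lipa at 0.36 and Lamp2 at 0.14. Man2b1 turned to 0.14.

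The X-linked members Atp6ap1, Atp6ap2 and Lamp2 all had ratios above 0, with a median of 0.15, beside a median of 0.19 over 386 X-linked genes tested and -0.01 over 11956 autosomal ones. After the GC correction Atp6ap2 stood at -0.18, while Atp6ap1 and Lamp2 stayed above 0. Sort and sex of the cells cannot be told apart here. For the marker counts that follow, 6167 of 12347 tested genes had ratios above 0. Of 14 macrophage markers 1 had a ratio above 0, the median log2 ratio was -0.45, and 4 were called, all lower in sort 2, against 4.90% of all tested genes: Cd163 had 35 reads in sort 2 and 163 in sort 1, C1qa had 0 and 16, C1qb had 90 and 203, and C1qc had 72 and 195. Of the 14, edgeR's exact test passed 1 (Cd163). Of 13 neutrophil markers 5 had ratios above 0 and 0 were called, with a median of -0.22. The granule genes Ngp (-0.68), Ltf (-0.75), Camp (-0.60) and Lcn2 (-0.61) were lowest. Other granule genes went the other way, with Ctsg at 0.49, Elane at 0.46 and Mpo at 0.18. Retnlg (0.14) and S100a8 (0.08) were above 0 as well. Of 11 eosinophil markers 9 had ratios above 0 and 0 were called, with a median of 0.17, and Ear6 (0.72), Prg2 (0.63) and Il5ra (0.60) were highest. Of 7 erythroid markers 6 had ratios above 0. None reached 1 RPKM in both sorts, though Hba-a1 (1.43 RPKM) and Hbb-b1 (1.01 RPKM) did so in sort 2. Slc4a1 (1.77) and Hba-a1 (1.15) were called higher in sort 2, against 3.05% of all tested genes. They had 125 and 32 reads in sort 2 and 37 and 14 in sort 1. Of the 7, edgeR's exact test passed 0 at an adjusted p under 0.05.

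**Figure D5:**
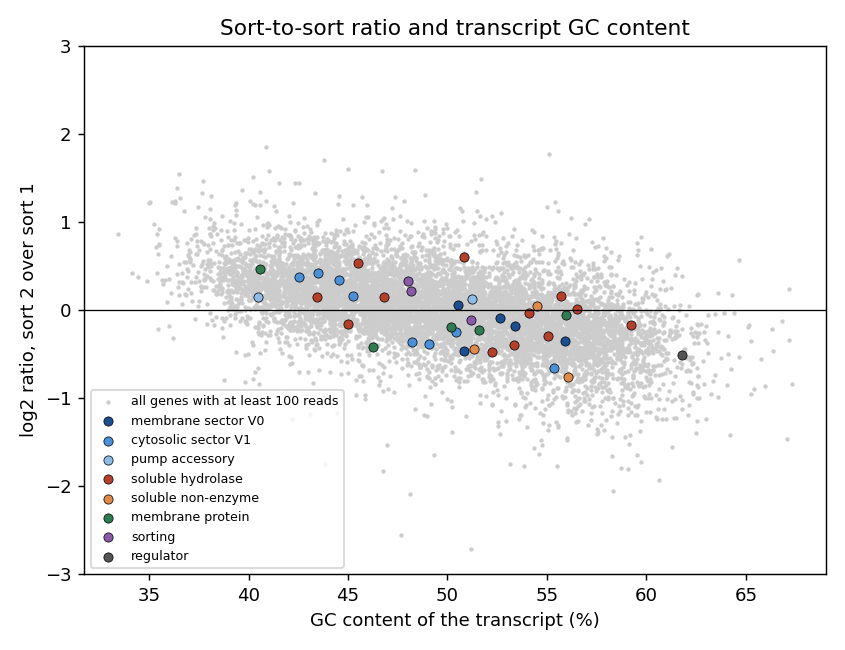
Log2 ratio, sort 2 over sort 1, against GC content of the transcript in percent, for genes with at least 100 reads (grey) and the members among them (coloured by role). Points fall from upper left to lower right in grey and coloured points alike, and 6 grey genes lie more than 3 from 0, beyond the axis.

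The 79 further lysosomal genes listed for comparison were detected less completely, 54 of 79 (68.4%). That is a count over lists, also chosen with earlier results known, and was not tested. The 79 include the 9 other pump genes, of which 2 were detected. Of 24 other hydrolases and related enzymes 19 were detected, led by Smpdl3a, a relative of acid sphingomyelinase, with 45.0 RPKM in sort 2 and 31.5 RPKM in sort 1, against 2.72 and 2.55 RPKM for Smpd1 itself. Ctsa, which protects beta-galactosidase and the neuraminidase Neu1 in a complex, had 13.6 RPKM in sort 2 and 12.6 RPKM in sort 1, and Neu1 had 8.86 and 10.6 RPKM. Hyal1, Naglu, Sgsh, Dnase2a and Acp5 were under 1 RPKM in both sorts. Among 21 other membrane genes 12 were detected. Laptm5, a lysosomal membrane protein of blood cells, had 111 RPKM in sort 2 and 163 RPKM in sort 1, so it alone was near Man2b1. Cln3 had 22.3 RPKM in sort 2 and 29.7 RPKM in sort 1.

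Of 10 other sorting genes 9 were detected. Ap1g1, of the AP-1 coat, had 9.75 RPKM in sort 2 and 9.79 RPKM in sort 1, and the sorting receptor gene Sort1 had 8.19 RPKM in sort 2 and 9.21 RPKM in sort 1. Of 13 regulators and nutrient-sensing genes 10 were detected. Lamtor1, an anchor of the mTORC1 platform on lysosomes, had 7.45 RPKM in sort 2 and 9.18 RPKM in sort 1, while Rragd was under 1 RPKM. Of the 69 that could be tested between sorts, 3 were called, all lower in sort 2, against 4.90% of all tested genes, and edgeR's exact test passed 0 of them at an adjusted p under 0.05 and 3 at an unadjusted one: Laptm4b (log2 ratio -1.46), Tmem192 (-1.14) and Gga1 (-1.08).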

How the data were processed

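Poly(A) RNA-seq of 2 sorts of 1 group was used, labelled replicates 1 and 2. Reads were aligned with STAR 2.4.0c to mm10, per the submitters' processing notes; no counting program is named. Per RefSeq row (26099 rows), the authors deposited whole-number counts of reads and RPKM values. Counts and RPKM were summed by gene symbol; 37 members had 1 row and 3 had several. Levels between genes are RPKM only. Counts between sorts were tested as given in the report, with log2 ratios from TMM-scaled CPM and a prior count of 2. The edgeR quasi-likelihood test needs replicates within a sort and was not run. The labels do not say how many animals each sort held, though Y-linked reads in 1 sort alone mean that the pools differed. The binomial p-values set the difference between these 2 libraries against counting noise only, and measure no spread among libraries or animals. GC content, lengths and 50-base stretches came from GENCODE vM21 transcripts, and the GC correction was a lowess over genes with at least 100 reads. Members and gene lists were chosen with earlier results of these data known. All 40 members, the other pump paralogues and TFEB relatives, and of the other lists the 4 highest and those under 1 RPKM could be named; some of the last are not reported here. Tools were R 4.3.3, edgeR 4.0.16, DESeq2 1.42.0 (size factors), Python 3.11.15, pandas 2.3.3, scipy 1.17.1 and statsmodels 0.14.6.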

Additional observations from a re-analysis of the deposited data

How the results depend on the processing

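Of the 40 members 33 to 40 were detected at minimums of 2 and 0.5 RPKM or 1 CPM, 37 to 39 in a single sort, and 38 with Atp6v0c-ps2 added. Of the 79 other genes 39 to 61 were detected at those RPKM minimums and 55 to 58 in a single sort. Leaving out a sort gave -0.51 to -0.05 for pump minus hydrolases, -0.09 to 0.10 for pump minus membrane proteins, 0.15 to 0.41 for hydrolases minus membrane proteins and 0.55 to 0.99 for V0 minus V1. Means over genes gave -0.04 ± 0.08 for pump minus hydrolases, -0.15 ± 0.02 for pump minus membrane proteins and -0.11 ± 0.05 for hydrolases minus membrane proteins. V0 minus V1, a difference added after seeing the data, was 1.65 with genes of at least 1 RPKM or without Atp6v0c, and 0.065 with the other detected subunit genes. Members called between sorts numbered 0 with total counts (946 of 12347 genes), 4 at a fold of 1.5 (2246), 29 at any fold (5481) and 0 with edgeR's exact test (33). Their median log2 ratio was -0.046 with total counts, beside 0.054 over all tested genes. With deposited RPKM it was -0.17, beside -0.072 over tested genes with RPKM above 0 in both sorts. After GC correction it was -0.043, beside 0.0009 over the genes corrected, and 7 of 39 members changed sign. DESeq2 size factors, a prior count of 0.5, a pseudocount of 0.1, rescaled RPKM, the row with most reads and a lower read filter moved none of these past their limits. No paired analysis was possible because there is 1 group. Where not evident from the setting, the cause was not tested. With 2 libraries the spread between sorts rests on 1 degree of freedom, and members near 100 reads (Atp6v0c, Arsa, Mcoln1, Atp6v1g1) are the least precise.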
